A study of Mus musculus with 6 samples.

Results

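The genes described here are 10 liver genes that remove superoxide and peroxides or carry selenium to the enzymes that do so: the glutathione peroxidases Gpx1, Gpx3 and Gpx4, the superoxide dismutases Sod1 and Sod2, catalase (Cat), the peroxiredoxins Prdx1, Prdx5 and Prdx6, and selenoprotein P (Selenop). They were given as a list of names, and their probes were found as the non-control probes of the array whose RefSeq accession belongs to a listed gene. This gave 13 probes of 56605 on the array, and 10 genes of the 22911 that could be named. Prdx1 had 3 probes, Prdx6 had 2 and each other gene had 1.

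Liver RNA came from male mice aged 12 weeks when feeding began, with 1 mouse and 1 single-colour Agilent array per sample. The control group was 3 mice fed granulated regular chow, and the soy group was 3 mice fed chow made of 75% regular food and 25% soy bean powder, both for 28 days. The sources used here name no genetic modification of the mice in either group and do not give the strain. The arrays came from 3 slides. Slide 1 carried control 1, control 2 and soy 1, slide 2 carried soy 2 alone, and slide 3 carried control 3 and soy 3. All values below are background-corrected, quantile-normalized median signals on the log2 scale, in which a difference of 1 is a doubling of signal, and each change is soy minus control. A probe was called changed at an adjusted p below 0.05 with a fold change above 1.5 or below 0.66. A signal from one probe cannot be set against the signal of another probe, because probes differ in how strongly they bind, so each gene is compared only with itself.

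Superoxide dismutases turn superoxide into hydrogen peroxide, SOD1 in the cytosol and SOD2 in the mitochondrial matrix. Hydrogen peroxide is then broken down by catalase, which sits mainly in peroxisomes, by glutathione peroxidases, which draw electrons from glutathione, and by peroxiredoxins, which mostly draw them from thioredoxin. The liver makes and meets much peroxide because of its fatty acid oxidation and its handling of foreign compounds. Several of these enzymes contain selenocysteine, and hepatocytes export selenium to other organs in selenoprotein P.

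The array detected all of these genes. Every one of the 13 probes was well above background on all 6 arrays, as 27310 probes of the array were, and none of their spots was saturated or marked as an outlier. The soy arrays had fewer probes well above background in all, 28701, 29375 and 29881, against 34383, 33740 and 35521 on the control arrays. The part of this gap in the values below was not tested.

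None of the 10 genes passed the test. By their brightest probes 9 genes were higher and 1 was lower in the soy livers (8 and 2 with cyclic loess or with the processed signal, 7 and 3 with a shift to the 75th percentile, 6 and 4 without control 1, and 7 and 3 without soy 1 or soy 3), 0 were called, and the smallest adjusted p was 0.193, for Gpx4. Across the array 0.35% of probes were called, 0.208% higher and 0.141% lower, among the brightest probes of all genes with a symbol 0.458% were called, and among the probes well above background on all 6 arrays 0.63%. The median change of the 10 genes was 0.12, against -0.010 for all probes and -0.012 for the probes well above background on all 6 arrays. These directions depend on the scaling between arrays. Before normalization only Gpx1, Gpx4 and Sod2 had a higher mean intensity in soy livers, and in Prdx5 and Selenop all soy intensities lay below all control intensities. In Gpx4 and Sod2 all 3 normalized soy values lay above all 3 control values, and no gene had the opposite arrangement after normalization. Of the probes well above background on all 6 arrays, 11.7% were apart in that direction and 12.1% in the other, and of all probes 7.75% and 10.3%. Both genes also had an unadjusted p below 0.05, as did 18.1% of the bright probes. These shares are the background against which the 2 genes stand. With 3 arrays against 3, an exact permutation test of a single gene cannot give a p below 0.1.

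**Figure D1:**
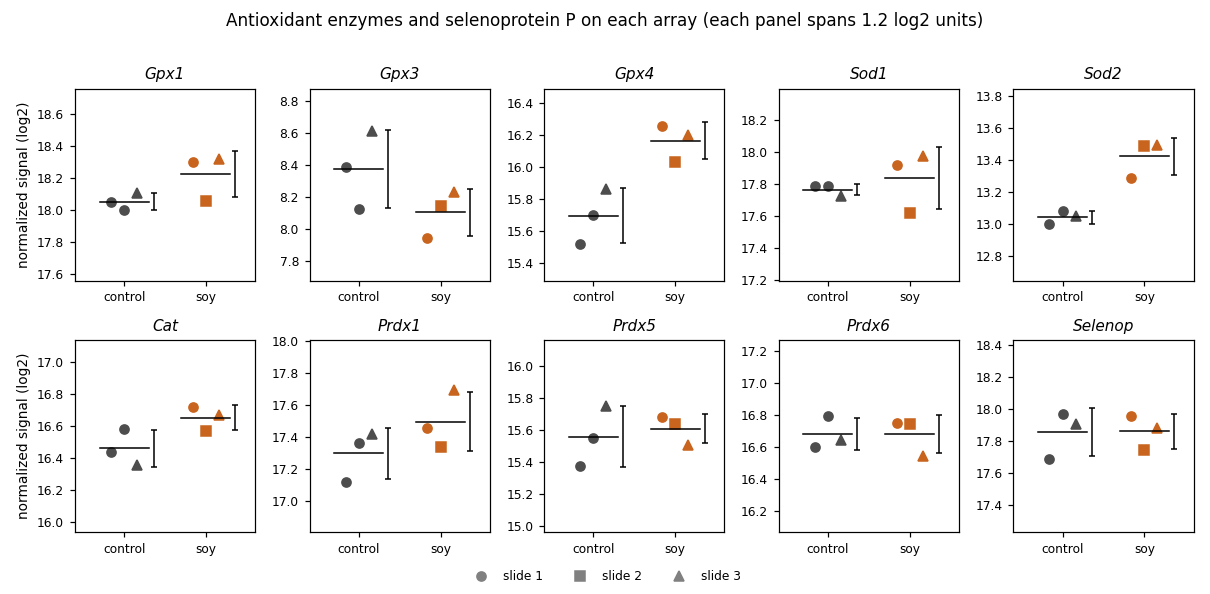
Normalized signal (log2, vertical axis) of the brightest probe of each of the 10 genes on the 3 control arrays (grey) and the 3 soy arrays (orange). Horizontal lines are group means, vertical bars are 1 SD to either side, the shape of a point gives its slide, and all panels span the same height on axes that do not start at 0. In Gpx4 and Sod2 the groups do not overlap, and in the other 8 panels they do.

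The precision of the arrays sets what could be seen. The standard error of the change lay between 0.10 and 0.15 for the brightest probes, close to the median of 0.13 for probes well above background on all 6 arrays. For 7 of the 10 genes the whole 95% interval lay within a 1.5-fold change in either direction. The exceptions were Gpx3, Gpx4 and Sod2. The highest upper bound of the fold among the genes was 1.69, for Gpx4, and the lowest lower bound was 0.652, for Gpx3.

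**Figure D2:**
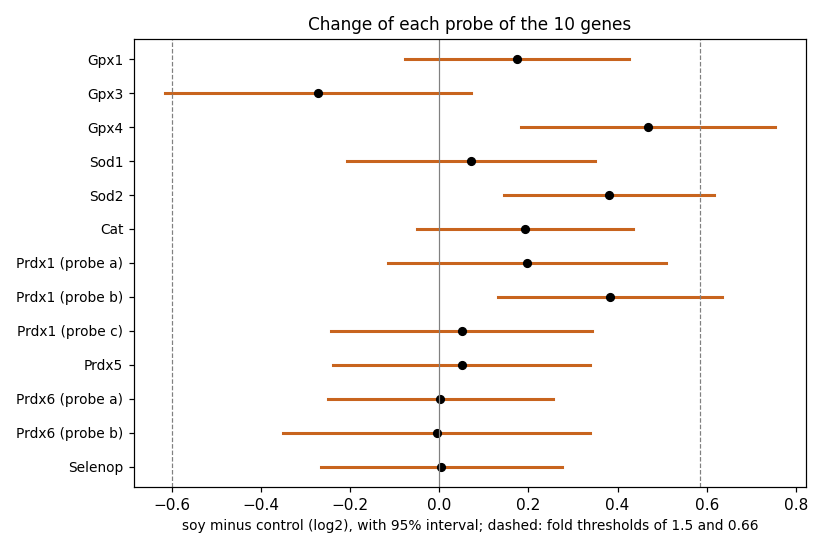
Change between soy and control livers (log2, horizontal axis) for each of the 13 probes, with its 95% interval from limma as a bar; dashed lines mark folds of 0.66 and 1.5. The intervals of Gpx4, Sod2 and the second probe of Prdx1 lie above 0, none of the point estimates reaches a dashed line, and the intervals of Gpx4, Sod2, the second Prdx1 probe and Gpx3 cross one.

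Among Gpx1, Gpx3 and Gpx4, the last differed most between the diets. GPX4 is the enzyme that reduces lipid peroxides within membranes. Its signal was 15.52, 15.70 and 15.87 in the control livers and 16.26, 16.04 and 16.20 in the soy livers. The lowest soy value, on soy 2, was above the highest control value, on control 3. The group means were 15.70 ± 0.17 and 16.17 ± 0.12 (SD, n = 3 each), and the change was 0.47 with a standard error of 0.12. This is a fold of 1.38 with a 95% interval from 1.13 to 1.69, an unadjusted limma p of 0.00565 and an adjusted p of 0.193. Within slide 1 the change was 0.65, and within slide 3 it was 0.34. Of the probes well above background on all 6 arrays, 9.75% differed at least as far in either direction. Before normalization the groups of Gpx4 did overlap. The median intensity was 56013, 57798 and 55796 in the control livers and 72732, 56651 and 74162 in the soy livers, with soy 2 inside the control range.

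Gpx1, the abundant glutathione peroxidase of cytosol and mitochondria, was 18.05, 18.00 and 18.11 in the control livers and 18.30, 18.06 and 18.32 in the soy livers. Soy 1 and soy 3 lay above every control, and soy 2 lay among them. The change was 0.17, with an interval from -0.08 to 0.43 and an adjusted p of 0.597.

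Gpx3 encodes the glutathione peroxidase secreted into plasma, which is known to be made chiefly by the kidney. It was the only one of the 10 genes with a lower mean in soy livers. Its median intensity before normalization lay between 262 and 386, over a median local background of 54 to 59 on the same arrays. Control values were 8.39, 8.12 and 8.61, and soy values were 7.94, 8.14 and 8.23. The groups overlapped through control 2. The change was -0.27, a fold of 0.828 with an interval from 0.652 to 1.05 and an adjusted p of 0.543, and it was -0.32 within slide 1 and -0.38 within slide 3. Without control 3 it was -0.15 and without control 2 it was -0.40.

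Of the superoxide dismutases, the mitochondrial one was apart between the groups and the cytosolic one was not. Sod2 was 13.00, 13.08 and 13.05 in the control livers and 13.29, 13.49 and 13.49 in the soy livers. The control values were close together, and each soy value was higher than all of them. The means were 13.04 ± 0.04 and 13.43 ± 0.12 (SD, n = 3 each), a change of 0.38 with a standard error of 0.10. The fold was 1.30 with a 95% interval from 1.11 to 1.53, the unadjusted limma p was 0.00599 and the adjusted p was 0.197. The change was 0.25 within slide 1 and 0.44 within slide 3, and 14.5% of the probes well above background on all 6 arrays differed at least as far. In median intensities before normalization Sod2 was 10146, 8885 and 8021.5 in the control livers and 9718, 9716 and 11375 in the soy livers, and there control 1 lay among the soy values.

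Sod1 was 17.79, 17.79 and 17.73 in the control livers and 17.92, 17.62 and 17.98 in the soy livers. The soy values surrounded the control values, with soy 2 below all of them and the other soy arrays above. This held only after normalization. The median intensities before it were 262808, 248609 and 205602 in the control livers and 226692, 191086 and 241115 in the soy livers. There control 1 and control 2 lay above every soy value. The change of 0.07 had an interval from -0.21 to 0.35 and an adjusted p of 0.863. Whether the changes of Sod2 and Sod1 differ from each other was not tested.

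Catalase, the peroxisomal enzyme that splits hydrogen peroxide without a reducing partner, was 16.44, 16.59 and 16.36 in the control livers and 16.72, 16.57 and 16.67 in the soy livers. Soy 2 was just below control 2, and this was the only crossing of the groups. The change was 0.19, a fold of 1.14 with an interval from 0.966 to 1.35 and an adjusted p of 0.542, and it was 0.21 within slide 1 and 0.31 within slide 3.

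The peroxiredoxins gave smaller or less even differences. Prdx1, a cytosolic peroxiredoxin reduced by thioredoxin, had 3 probes on the same RefSeq transcript, and they did not give the same picture. The brightest read 17.12, 17.36 and 17.42 in the control livers and 17.46, 17.34 and 17.70 in the soy livers, a change of 0.20 with an adjusted p of 0.633, which was 0.10 without soy 3 and 0.11 without control 1. The second read 16.07, 16.08 and 16.26 against 16.40, 16.53 and 16.62, with no overlap, a change of 0.38 with a standard error of 0.11 and an adjusted p of 0.227. The third read 14.02, 14.12 and 14.44 against 14.22, 14.26 and 14.24, a change of 0.05 with an adjusted p of 0.914. On this last probe all soy values lay inside the control range. With the second Prdx1 probe, 3 of the 13 probes had all soy values above all control values. Of the probes well above background on all 6 arrays, 11.7% were apart in that direction.

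Prdx5, a peroxiredoxin found in mitochondria, peroxisomes and cytosol, was 15.37, 15.55 and 15.75 in the control livers and 15.68, 15.64 and 15.51 in the soy livers. All soy values lay inside the control range, and the change of 0.05 had an interval from -0.24 to 0.34. Before normalization its median intensity was 51222.5, 52103 and 51824 in the control livers and 50020, 43309.5 and 46580 in the soy livers. There all soy values lay below all control values. Prdx6, the peroxiredoxin that uses glutathione and also acts on phospholipids, was 16.60, 16.79 and 16.65 against 16.75, 16.75 and 16.54. The change was 0.0023 with an interval from -0.25 to 0.25, and its second probe gave -0.0059. Within slides the sign of both genes was mixed: Prdx5 differed by 0.22 on slide 1 and -0.25 on slide 3, and Prdx6 by 0.06 and -0.10.

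Selenop was 17.69, 17.97 and 17.91 in the control livers and 17.96, 17.74 and 17.88 in the soy livers. In median intensities before normalization all soy values lay below all control values, at 247428, 277777 and 238552 in controls and 233416, 214762 and 221146 in soy livers. After normalization both groups covered nearly the same range. The change was 0.0046, a fold of 1.00 with an interval from 0.832 to 1.21, so a change of 1.5-fold in either direction lay outside the interval.

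Array by array, the 10 genes did not all follow the diet. Control 1 gave the lowest of the 6 values for 5 genes, and soy 3 gave the highest for 4. Among the soy arrays, soy 2, the one alone on its slide, was the lowest for 6 of the 10. When soy 2 was left out, the groups no longer overlapped in 6 genes, all higher in soy: Gpx1, Gpx4, Sod1, Sod2, Cat and Prdx1. In the same comparison 15.9% of the probes well above background were apart in that direction. The median change of the 10 genes was then 0.20, and 0 of them were called. Leaving out control 2 instead gave 4 genes without overlap, Gpx4, Sod2 and Cat higher and Gpx3 lower, where 32.9% of the probes well above background were apart in either direction. Within slides 1 and 3, which hold arrays of both groups, the change had the same sign as in the whole comparison on both slides for 7 genes. What sets soy 2 apart cannot be told from the slide, since no control array shared it. Soy 2 also had the highest red cell signal of the 6 arrays, as given below with the cell type markers, and the part of that signal in the values of soy 2 was not tested.

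**Figure D3:**
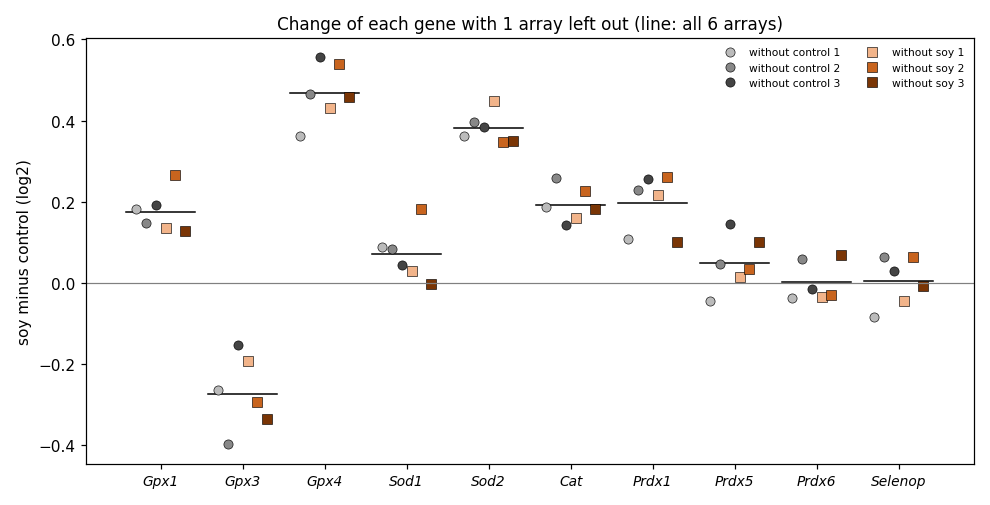
Change of each gene (log2, vertical axis) on its brightest probe when 1 of the 6 arrays is left out; circles leave out a control array, squares a soy array, and the horizontal line is the change with all 6. Gpx4 and Sod2 stay between 0.35 and 0.56 in every case, Gpx3 stays below 0, and Sod1, Prdx5, Prdx6 and Selenop lie on both sides of 0.

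The transcription factor NRF2 is known to switch on many antioxidant genes through the antioxidant response element. The 250 bases before the RefSeq start of each gene (assembly GRCm38.p6) were searched on both strands for the core of this element, TGACNNNGC, and for the related form TGAGNNNGC, which differ in the fourth letter and so never match at the same letters. Of 32851 promoters 10.2% held TGACNNNGC and 14.4% held TGAGNNNGC. Promoters of 9 of the 10 genes were in the table, which does not hold Prdx6. Of these, 2 held the core, Sod1 and Prdx1, and 0 held the other form. Both windows are printed with the match in capitals, next to those of Srxn1, the sulfiredoxin gene, which showed the largest difference among the reducing partners described below. All run 5′ to 3′ on the plus strand.
Sod1, chr16:90220681-90220739, match on the opposite strand: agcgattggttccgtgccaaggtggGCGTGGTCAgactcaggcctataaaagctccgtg
Prdx1, chr4:116685441-116685499, match on the opposite strand: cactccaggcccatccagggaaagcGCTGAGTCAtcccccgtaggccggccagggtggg
Srxn1, chr2:152105454-152105512, match on the same strand: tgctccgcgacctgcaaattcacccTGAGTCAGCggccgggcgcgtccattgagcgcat
Srxn1, chr2:152105341-152105399, match on the opposite strand: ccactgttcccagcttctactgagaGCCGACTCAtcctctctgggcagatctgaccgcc
The Sod1 match lay 56 to 48 bases before the start and the Prdx1 match 133 to 125 bases before it. The Srxn1 matches were of the TGAGNNNGC form, 45 to 37 and 158 to 150 bases before the start. The Prdx1 window and the first Srxn1 window also held TGACTCA, the AP-1 motif, which was in 4.46% of promoters and overlaps the capitals. Gpx4 and Sod2, the genes whose groups were apart, held neither form of the element in this stretch. A match of letters is a description and not a measured binding site.

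The other peroxidases, peroxiredoxins and superoxide dismutase had a median change below 0. Of 9 such genes on the array 3 were higher and 6 lower (4 and 5 under each of the other scalings, where Gpx2 changed sign), and 0 were called. The median change was -0.21, or -0.22 to -0.21 under the other scalings. It was -0.10 without control 1, with 2 higher and 7 lower, and 1 was higher and 8 lower without soy 1. Prdx3, the peroxiredoxin of mitochondria, was 12.98, 13.02 and 13.17 in the control livers and 12.87, 12.87 and 12.80 in the soy livers, a change of -0.21 with an adjusted p of 0.477. Prdx4, the peroxiredoxin of the endoplasmic reticulum, was 14.19, 13.93 and 14.12 against 13.84, 13.77 and 13.92, a change of -0.23 with an adjusted p of 0.470. In both of these genes all soy values lay below all control values, as in 12.1% of the probes well above background on all 6 arrays. Gpx6, a glutathione peroxidase known from olfactory tissue, was well above background on 3 control arrays and 0 soy arrays. It was named through its control signal alone and its soy level is only a bound, so that no difference is given. The adjusted p of Gpx6 was 0.276, and it was 0.0307 on the processed signal, where the gene passed. The remaining genes were not apart: the change was 0.18 for Prdx2, the cytosolic peroxiredoxin abundant in red cells, -0.46 for the secreted Sod3, -0.33 for Gpx8, 0.05 for Gpx7 and -0.04 for Gpx2. Sod3 was -0.16 without soy 1, -0.28 without control 1 and -0.70 without control 2, Gpx8 was -0.074 without control 1 and -0.22 without soy 1, and Prdx2 was 0.092 without control 2. Their adjusted p lay above that of Gpx6, and the last gene of this set, Gpx5, stood well above background on no array.

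Peroxidases need a supply of electrons. Of the 16 reducing partners (thioredoxins, glutaredoxins, their reductases, sulfiredoxin, sestrins, the thioredoxin inhibitor Txnip and the SOD1 copper chaperone Ccs) 11 were higher and 5 lower, 0 were called and the median change was 0.13. The median was 0.087 without control 1, and 9 genes were higher and 7 lower without soy 2. Srxn1, whose enzyme restores overoxidized peroxiredoxins, was 12.28, 12.27 and 12.02 in the control livers and 12.82, 13.10 and 13.23 in the soy livers. The groups were well apart, and the change was 0.86 with a standard error of 0.14, a fold of 1.81 with an adjusted p of 0.0605. It was 0.54 within slide 1 and 1.2 within slide 3. Srxn1 did pass under other settings: its adjusted p was 0.0131 on the processed signal, 0.0324 when only probes well above background were tested and 0.0428 with trend and robust moderation. It was 0.25 with the slide as a block, 0.133 with a replicate block, 0.122 with offset 16 and 0.0781 to 0.198 without 1 array. Thioredoxin reductase 1 (Txnrd1), a selenoenzyme, was 13.00, 13.06 and 13.32 against 13.48, 13.42 and 13.56, a change of 0.36 with an adjusted p of 0.298. Its second probe gave a change of 0.60. Glutathione reductase (Gsr) was 13.47, 13.22 and 13.21 against 13.46, 13.79 and 13.78, a change of 0.37 with an adjusted p of 0.343, and here soy 1 lay among the controls.

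NADPH feeds both the thioredoxin and the glutathione systems. Of 7 genes for NADPH supply on the array 6 were higher and 1 lower, and the median change was 0.24. Transketolase (Tkt), an enzyme of the non-oxidative pentose phosphate pathway, rose and was the only gene called in any of the lists given here. It was 13.88, 13.96 and 13.76 in the control livers and 14.75, 14.58 and 14.60 in the soy livers, a change of 0.78 with a standard error of 0.10. The fold was 1.71 with a 95% interval from 1.45 to 2.02 and an adjusted p of 0.0369, and the change was 0.83 within slide 1 and 0.84 within slide 3. The call was lost when any 1 array was left out, with an adjusted p between 0.0780 and 0.128, although the change stayed between 0.73 and 0.81. It was also lost with the replicate number as a block (adjusted p of 0.0978), with the slide as a block (0.135) and with a background offset of 16 (0.0991).

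Malic enzyme (Me1) and mitochondrial isocitrate dehydrogenase (Idh2), which both produce NADPH, had all soy values above all control values without passing. Soy values were all above control values in 11.7% of the probes well above background on all 6 arrays. Me1 was 13.89, 13.51 and 13.58 against 14.23, 14.17 and 14.60, a change of 0.67 with an adjusted p of 0.153, and its second probe gave 0.48. Me1 passed on the processed signal, with an adjusted p of 0.0411. Idh2 was 14.42, 14.56 and 14.23 against 14.95, 14.71 and 14.98, a change of 0.48 with an adjusted p of 0.201, and its second probe gave 0.55. G6pdx, the glucose-6-phosphate dehydrogenase that opens the oxidative pentose phosphate pathway, was lower, at 10.65, 11.16 and 10.33 against 9.83, 9.78 and 10.31. Its change of -0.74 had an adjusted p of 0.283, and it was -1.07 within slide 1 but -0.015 within slide 3.

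**Figure D4:**
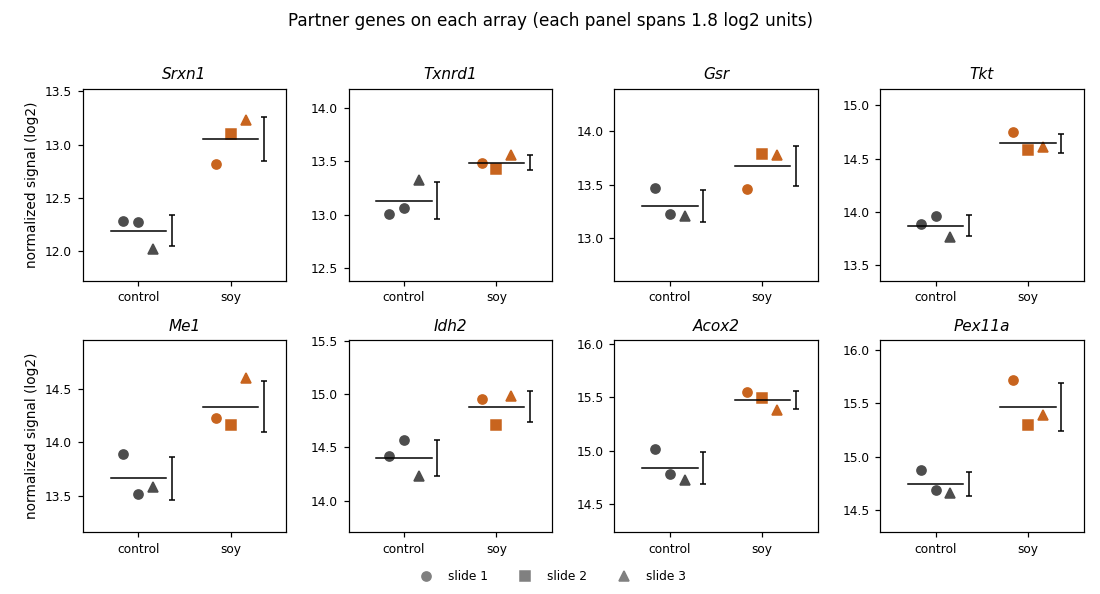
Normalized signal (log2, vertical axis) of 8 partner genes on the 3 control arrays (grey) and 3 soy arrays (orange), brightest probe of each; lines are means, bars are 1 SD to either side, and shapes give the slide. Tkt, Srxn1, Txnrd1, Me1, Idh2, Acox2 and Pex11a show no overlap between the groups, Gsr does, and of these genes Tkt passed both thresholds. The 8 genes were picked from those named for the size of their change, and all had a higher mean in soy livers. Named genes that were lower are not shown, among them G6pdx (-0.74) and Paox (-0.53), whose soy values all lay below the control values. For bright probes in general, soy lay wholly above control in 11.7% and wholly below in 12.1%.

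Selenium genes gave no common direction beside Selenop. Of 16 other selenoproteins 8 were higher and 8 lower, 0 were called, and the median change was 0.00055. They were 11 and 5 with a median of 0.032 without control 3, and 10 and 6 with 0.033 on the processed signal. The largest difference was in Dio1, the deiodinase that activates thyroid hormone, and came from 1 array. Dio1 was 12.11, 8.64 and 12.24 in the control livers and 12.73, 12.31 and 12.46 in the soy livers, and all 3 of its probes were low on control 2. The change of 1.5 had an interval from -0.51 to 3.51 and an adjusted p of 0.568, and without control 2 the change was 0.33. Selenoi and Selenoh differed by 0.45 and 0.30, with an adjusted p of 0.584 and 0.514, and Selenoi differed by 0.15 without control 1 and 0.27 without soy 3. Of 10 genes that build selenocysteine into proteins or take up selenoprotein P, 6 were higher and 4 lower, 0 were called and the median change was 0.06 (4 and 6, with a median of -0.022, without control 1). The largest differences were 0.51 in the receptor gene Lrp2, 0.23 in Secisbp2, which binds the selenocysteine insertion element, and -0.18 in Trnau1ap, all with overlap or with probes that differed in size or sign. Without control 1, Lrp2 differed by 0.32 and Secisbp2 by 0.087. Under the other settings Lrp2 differed by 0.34 to 1.24 and Secisbp2 by 0.14 to 0.27.

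On the source side, 12 genes of oxidases that produce hydrogen peroxide had a median change of -0.08, with 4 higher, 8 lower and 0 called, and without control 1 they were 6 and 6 with a median of 0.0094. Acox2, the peroxisomal oxidase of branched and bile acid side chains, was 15.01, 14.78 and 14.72 against 15.55, 15.49 and 15.38. Its change of 0.63 had an adjusted p of 0.0808 and was 0.65 on slide 1 and 0.66 on slide 3. Its second probe gave 0.40. Acox2 passed on the processed signal, with an adjusted p of 0.0151, and when only probes well above background were tested, with 0.0453. The polyamine oxidase gene Paox differed by -0.53 with an adjusted p of 0.340, and urate oxidase (Uox) differed by -0.27 with overlap. Paox was -0.33 without control 2 and -0.38 on its second probe, where the groups overlapped. Uox was -0.13 without soy 3, -0.17 without control 2 and -0.48 without soy 1. Of 18 genes of peroxisome import and membrane, the compartment that houses catalase, 9 were higher and 9 lower, 0 were called and the median change was 0.05. The median was 0.00057 without soy 1, and 12 genes were higher and 6 lower without soy 3. Pex11a, which takes part in peroxisome division, was 14.87, 14.69 and 14.66 against 15.72, 15.29 and 15.39, a change of 0.73 with an adjusted p of 0.0908. It passed in the same other settings as Acox2, with an adjusted p of 0.0220 on the processed signal and 0.0499 among the probes well above background. Pex26 and Pxmp2 differed by -0.38 and -0.35, with an adjusted p of 0.590 and 0.449. Pex26 differed by -0.13 without control 3 and by -0.62 without control 1, and its second probe gave -0.064.

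**Figure D5:**
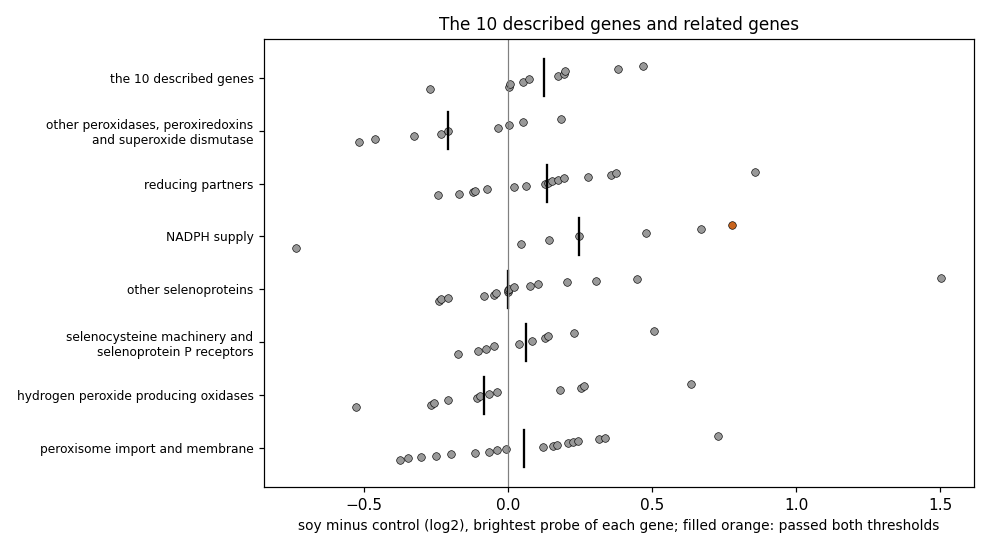
Change between soy and control livers (log2, horizontal axis) of every gene on the array in 8 gene lists, 1 point a gene on its brightest probe; the vertical bar in each list is its median and orange marks a gene that passed both thresholds. The medians lie between -0.21 and 0.24, that of the 10 described genes is 0.12, and Tkt is the only orange point.

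In whole liver, fewer cells of a type and less RNA per cell cannot be told apart, so the marker genes of the cell types are given beside these values. The livers carried the markers of their label: 8 of 8 hepatocyte genes were well above background on all 6 arrays. Albumin (Alb), the brightest of them, was 18.99, 18.99 and 19.02 in the control livers and 18.99, 18.93 and 18.66 in the soy livers. Of the hepatocyte markers 1 was higher and 7 lower (2 and 6 with cyclic loess or the processed signal, where Alb changed sign), 0 were called, and their summed signal was 1511520, 1567440 and 1513000 in controls and 1471200, 1358590 and 1359200 in soy livers. The soy sums were all below the control sums.

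Red cells hold much catalase, GPX1 and PRDX2 protein. Of 6 red cell markers read on the array, Epb42 did not stand well above background anywhere, 5 were higher and 1 lower (2 and 4 without soy 2, 3 and 3 without control 2), and 0 were called. Their summed signal was 210120, 152890 and 231726 in controls and 168460, 369601 and 199822 in soy livers, and the brightest was the alpha globin Hba-a1, whose near-identical copy may share its signal. Soy 2 was the highest of all arrays and the groups overlapped. Hba-a1 differed by 0.26 with an adjusted p of 0.774, and by -0.066 without soy 2.

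The other marker lists held 0 called genes as well. Kupffer cell and leukocyte markers were higher in 9 of 10, but in 5 of 10 without control 1 or without soy 3. The brightest, Cd5l, differed by 0.45 (adjusted p of 0.538), by 0.20 without control 1 and by 0.29 without soy 3. Marco, the gene that was lower, differed by -0.73 (adjusted p of 0.589), by -0.20 without control 3 and by -0.46 without soy 1. Their sums were 41214.7, 57007.1 and 66565.4 in controls and 51738.1, 61582.6 and 75603.3 in soy livers. The sums of the 2 groups overlapped. Neutrophil markers were higher in 3 of 5 (4 with the 75th-percentile shift), with a median change of 0.49, or 0.29 without control 1. Their sums were 5902.83, 5989.49 and 7059.33 in controls and 6448.33, 6533.87 and 5495.53 in soy livers. The brightest, Elane, had a change of -0.24, while S100a8, S100a9 and Retnlg, picked out after their values were seen, had 0.58, 0.62 and 0.49, with an adjusted p of 0.445, 0.481 and 0.305. Retnlg was well above background on only 2 of the 3 control arrays, so its change, which is also the list median, is not exact. Elane was -0.11 without control 3, -0.12 without soy 3 and -0.38 without control 2, S100a8 was 0.29 without control 1, and S100a9 was 0.33 without control 1 and 0.96 without control 2. Endothelial markers were higher in 4 of 7. The brightest, Clec4g, had a change of 0.20, or 0.11 without soy 2. Lyve1, chosen after its values were seen, had -0.67 with an adjusted p of 0.654, or -0.036 without control 1 and -0.999 without control 2. Stellate cell markers were lower in 5 of 7 (4 with the processed signal or the 75th-percentile shift), and their sums were 44680, 38504.7 and 42378 in controls and 37117.9, 36845.6 and 40569.1 in soy livers. The brightest, Dcn, had a change of -0.08, which was -0.14 without control 2 and -0.044 without control 3. The collagen genes Col1a1 and Col3a1, also picked out after their values were seen, had all soy values below all control values on their brightest probes, with changes of -0.997 and -0.937 and an adjusted p of 0.318 and 0.271. Soy values were all below control values in 12.1% of the probes well above background on all 6 arrays. Col1a1 was 9.91, 8.53 and 8.95 in the control livers and 7.85, 8.06 and 8.49 in the soy livers, highest on control 1, without which its change was -0.60, and its second probe did overlap. Rgs5 of the same list was higher by 0.33, with an adjusted p of 0.419. Cholangiocyte markers were higher in 3 of 6 (4 with the 75th-percentile shift). The brightest, Spp1, had a change of 0.15, which was 0.020 to 0.35 without 1 array, and Epcam among them stood well above background on no array. Of the pancreas and adipocyte markers 6 of 6 were lower (4 with the processed signal or the 75th-percentile shift), and Adipoq and Plin1, which define adipocytes, were not well above background. Pnlip and Cpa1 were each well above background on 2 control arrays and 0 soy arrays, so their changes are not exact. The brightest of this last list was Cela1, an elastase that liver also expresses, at 14.79, 15.43 and 15.16 against 14.32, 14.67 and 14.19, a change of -0.73 with an adjusted p of 0.191 (0.0487 on the processed signal, where it passed). The part of these cell types in the changes of the 10 antioxidant genes was not tested.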

How the data were processed

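The authors scanned 1 single-colour Agilent whole-genome mouse array per liver and deposited Feature Extraction 11.5.1.1 output, in which the median intensities of spots and local background are unprocessed, and the processed signal is background subtracted and detrended. The authors also deposited log2 values for these arrays, with medians of 7.33 to 7.34. They differed by at most 0.0705 from spot values made here.

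Here the median intensities received normexp background correction (offset 50), quantile normalization and a log2 transform. Control and outlier spots were left out, and replicate spots of a probe were averaged. All 56605 probes were fitted with limma 3.58.1 (lmFit, eBayes) in R 4.3.3, two-sided and without a block, and Benjamini-Hochberg adjustment ran over all of them. RefSeq accessions gave a symbol to 32994 probes (58.3%) through a table of GRCm38.p6, which is not the build of the array annotation. A gene was read on its brightest probe. The labels describe the mice as separate animals.

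The 10 genes and the 15 gene lists beside them were chosen with earlier results of these data known, so no list was tested. Named were the 10 genes, their relatives well above background throughout at least 1 group, every called gene of the other lists with the 3 largest changes at that signal, and the brightest gene of each marker list. No probe was matched to Nnt, Hbb-bs, Ahsp or Ly6g. Another gene of the red cell list is not reported here. Promoters came from RefSeq and were searched with Python 3.11.15 and pandas 2.3.3, and matplotlib 3.10.9 drew the plots. The fit was tested on simulated data.

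The comparison was repeated without background correction, with offset 16, with the processed signal, with 75th-percentile or cyclic loess scaling, on bright probes only, with outlier spots, with trend and robust moderation, on gene means, with replicate or slide as a block, on the deposited values, without the fold threshold, and without each array. Such repeats for the related genes were chosen after seeing the data.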

Additional observations from a re-analysis of the deposited data

How the results depend on the processing

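Under each of the 13 other settings, and without any 1 array, 0 of the 10 antioxidant genes were called, although Gpx4 had an adjusted p of 0.0262 on the processed signal with a fold below 1.5. The number of genes without overlap was 2 or 3 under the other settings, where 23% to 25% of the probes well above background were apart in either direction, and 2 to 6 without 1 array, where 31.1% to 36.1% were. The median change of the 10 genes was 0.083 to 0.20 without 1 array, 0.21 with the slide as a block and 0.078 with the 75th-percentile shift. The highest values without 1 array came without soy 2. Of all probes 198 were called, against 77 with offset 16, 13138 on the processed signal (90.8% of them higher, against 59.6%), 299 with the 75th-percentile shift (67.6% higher), 497 on bright probes only, of which fewer were tested, 25 with the slide as a block and 26 to 208 without 1 array. The lowest count without 1 array came without soy 2. The processed signal and the 75th-percentile shift moved the median of all probes by 0.136 and 0.144 on the log2 scale. Among the related genes outside the cell type markers 1 was called, Tkt, against 8 on the processed signal, 4 on bright probes only, 2 with trend and robust moderation, and 0 with offset 16, with the slide as a block and without any 1 array. The 8 included Lrp8 and Hao2, whose brightest probes were well above background on no array, and Gpx6, which was so on no soy array. Of the cell type markers 0 were called, against 3 on the processed signal (Retnlg, Cela1 and Epb42, the last not well above background on any array) and 1, Tat, without control 3.

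The change of Prdx6, which was 0.0023, was -0.024 on the processed signal, -0.043 with the 75th-percentile shift, -0.013 with cyclic loess, -0.0018 on the gene mean, -0.011 with the slide as a block and -0.036 to 0.070 without 1 array. Selenop was -0.018 with the 75th-percentile shift and -0.084 to 0.064 without 1 array, Sod1 was -0.0035 to 0.18 and Prdx5 -0.043 to 0.14. Of the related genes, Gpx2 was 0.054 on the processed signal, 0.12 with the 75th-percentile shift and 0.0070 with cyclic loess, Alb was 0.0076 on the processed signal and 0.033 with cyclic loess, and Hba-a1 was -0.12 with the slide as a block. Without 1 array Gpx7 was -0.28 to 0.32 and Hba-a1 -0.066 to 0.50, and Gpx1, at 0.17 on all 6 arrays, was 0.27 without soy 2. The cause of these shifts was not tested.

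Samples share replicate numbers across the groups, but the deviations of same-numbered samples correlated at 0.116, -0.0574 and 0.106, so that the numbers were not taken as pairs. Control 1 and soy 1 also shared a slide, as did control 3 and soy 3, but control 2 and soy 2 did not. Number and slide therefore cannot be told apart in these correlations. With a replicate block 78 probes were called, 0 of the 10 antioxidant genes and 0 related genes, and not every sample correlated best with its own number. With 3 arrays a group, the number of arrays limits the precision.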
